A study of Mus musculus with 40 samples.

Results

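Oxidative phosphorylation subunit genes encode the proteins of respiratory complexes I to IV and of the ATP synthase, complex V. The members were chosen by symbol (Nduf, Sdh, Uqcr, Cyc1, Cox4 to Cox8 and Atp5 families, and the protein genes of mitochondrial DNA) and by a mean of 10 or more counts in a table. They numbered 100 of 55276 gene symbols in a genotype table, 102 of 55291 in a Pramel7 table and 101 of 55276 in a time course. In any of the tables, 104 genes were members, and 99 were members in all 3. Each table had 13 genes of the mitochondrial genome, and the nuclear members numbered 87, 89 and 88. By complex, the nuclear members of any table were 37 of complex I, 4 of complex II, 9 of complex III, 18 of complex IV and 17 of complex V. Another 6 have a symbol that ends in -ps, a form used for pseudogenes. Of these, Ndufb1-ps had no annotated position, so its status was not checked here, and the others are annotated as pseudogenes. Ndufs6b, counted here in complex I, is annotated as a pseudogene too.

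Electrons from NADH enter at complex I and those from succinate at complex II, pass through complex III to complex IV, which reduces oxygen, and the proton gradient that results drives complex V. Complex II is built from nuclear genes alone, whereas the other complexes need subunits from both genomes. Mitochondrial genes are transcribed as long polycistronic RNAs that are cut and then degraded at different rates. Nuclear genes that encode subunits have promoters of their own. Embryonic stem cells in serum respire but also rely on glycolysis.

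The 34 RNA libraries were all made from the E14tg2a line, which is derived from mouse embryonic stem cells and was cultured in serum with LIF. The genotype table holds WT, DuxKO, Dppa2KO, CtbpDKO (loss of the corepressors Ctbp1 and Ctbp2), Ctbp_DuxTKO and a Ctbp double knockout with Dppa2 loss, with 2 libraries each. The last pair is titled as a Dppa2 and Dux triple knockout, but its description names the Ctbp double knockout with Dppa2 knockout, which was used here. The Pramel7 table holds WT (4 libraries) and 2 libraries each of DuxKO, P7KO, P7OE (Pramel7 overexpression) and DuxKO_P7OE. The time course holds cells labelled CtbpDKO with Dox at days 0, 3, 9, 12 and 18, with 2 libraries each. Dux is a transcription factor of the 2-cell-like state, Dppa2 an activator of Dux, and Pramel7 a protein of the early embryo. The labels name no clones and do not say whether libraries came from separate cultures, so p-values measure only the spread between these libraries.

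In units of 1000000 counts, genotype libraries held 19.9 to 36.0, Pramel7 libraries 10.1 to 30.1 and time course libraries 16.7 to 30.2. All 8 stem cell markers were above 1 CPM (counts per 1000000 of the scaled library size) in every group. Ctbp1 averaged 0.0432 CPM in CtbpDKO against 66.4 in WT, and Ctbp2 43.7 against 213. Duxf3 had 0 counts in DuxKO and averaged 0.945 CPM in CtbpDKO, while Dppa2 RNA in Dppa2KO still reached 31.2 CPM against 59.1 in WT. The pair with the conflicting title had little Ctbp1 (0.10 CPM) and low Dppa2 (20.5 CPM). Pramel7 averaged 20.1 CPM in P7OE and 0.10 in WT, too low in WT to check P7KO. In the time course Ctbp2 went from 59.1 CPM at day 0 to 558 at day 3 and 303 at day 9, then to 47.1 and 53.6 at days 12 and 18. The libraries labelled CtbpDKO at days 3 and 9 therefore held Ctbp2 RNA above the WT level of the genotype table, which was normalized separately.

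Promoters are shown first, for the nuclear members that have an entry in RefSeq. Of 91 nuclear members, 67 matched the RefSeq promoter table (GRCm38.p6, the mm10 assembly), and the 250 bases before each start were searched on both strands. The site of NRF1, a factor known to bind respiratory gene promoters, was spelled GCGCA, then any base, then GCGC, and was found in 13 of the 67 genes (19.4%). It was found in 4.23% of all 27025 genes with a promoter, and in 8.62% of the 11404 other genes with a mean of 10 or more counts in the genotype table. The 13 genes were Atp5c1, Atp5g2, Atp5h, Atp5k, Cox6a1, Ndufa11, Ndufa5, Ndufa8, Ndufb4, Ndufs5, Ndufs6, Sdha and Sdhd. Of these, 12 lie on the minus strand, as do 48 of the 67 matched genes. The ETS site CCGGAAGT was found in 4.48% of members and 6.26% of the other expressed genes, and the YY1 site AAGATGGCG in 1.49% and 1.32%. The TATA box TATAAA was found in 10.4% and 7.99%. These matches are descriptions of letters and not of binding.

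The first 4 promoters below carry NRF1 sites and belong to members described later (Cox6a1 of complex IV, Ndufa8 of complex I, Sdha of complex II, Atp5k of complex V). The last 2 belong to Cox6b2 and Cox7b2, complex IV subunits best known from testis, which hold no NRF1 site in this window. All are on the minus strand and are written 5′ to 3′ in the direction of the gene. Capitals mark a match to one of the motifs. The stretches are chr5:115348959-115349208, chr2:36049339-36049588, chr13:74350241-74350490, chr5:108434400-108434649, chr7:4753095-4753344 and chr5:71548206-71548455.
Cox6a1: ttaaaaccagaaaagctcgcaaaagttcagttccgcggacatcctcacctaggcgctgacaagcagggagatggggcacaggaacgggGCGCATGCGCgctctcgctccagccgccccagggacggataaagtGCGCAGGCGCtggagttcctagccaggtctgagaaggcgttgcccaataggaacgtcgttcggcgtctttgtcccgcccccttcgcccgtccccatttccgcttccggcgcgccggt
Ndufa8: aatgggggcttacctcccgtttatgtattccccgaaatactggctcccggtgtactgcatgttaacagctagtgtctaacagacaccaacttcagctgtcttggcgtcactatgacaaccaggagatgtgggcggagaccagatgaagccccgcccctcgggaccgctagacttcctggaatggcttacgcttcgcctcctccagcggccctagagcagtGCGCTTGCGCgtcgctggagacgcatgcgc
Sdha: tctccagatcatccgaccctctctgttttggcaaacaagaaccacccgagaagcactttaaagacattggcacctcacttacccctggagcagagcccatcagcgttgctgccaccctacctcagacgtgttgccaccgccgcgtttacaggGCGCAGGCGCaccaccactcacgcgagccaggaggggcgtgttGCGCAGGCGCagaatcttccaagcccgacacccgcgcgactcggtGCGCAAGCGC
Atp5k: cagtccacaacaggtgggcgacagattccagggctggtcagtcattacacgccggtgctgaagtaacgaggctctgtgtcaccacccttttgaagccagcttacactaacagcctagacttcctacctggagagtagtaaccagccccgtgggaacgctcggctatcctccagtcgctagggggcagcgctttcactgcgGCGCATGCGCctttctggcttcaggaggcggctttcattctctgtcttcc
Cox6b2: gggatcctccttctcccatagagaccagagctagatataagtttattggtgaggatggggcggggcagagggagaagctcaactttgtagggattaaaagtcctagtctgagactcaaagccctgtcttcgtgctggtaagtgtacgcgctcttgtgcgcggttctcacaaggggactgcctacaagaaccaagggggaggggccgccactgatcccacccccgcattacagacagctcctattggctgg
Cox7b2: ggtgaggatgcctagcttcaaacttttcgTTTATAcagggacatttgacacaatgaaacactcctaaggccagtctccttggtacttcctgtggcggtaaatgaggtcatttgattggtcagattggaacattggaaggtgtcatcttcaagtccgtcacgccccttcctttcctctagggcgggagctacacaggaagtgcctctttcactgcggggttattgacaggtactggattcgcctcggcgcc
Cox6a1 held 2 NRF1 matches, Sdha 3, and Ndufa8 and Atp5k 1 each, while the capitals in Cox7b2 are a TATA box match on the other strand. These genes were chosen for display after their values were seen.

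In the genotype table the mitochondrial share differed between the libraries of a group by 1.13 to 2.13 times and the nuclear share by 1.00 to 1.13 times. The mitochondrial spread was the wider in each of its 6 groups, but not in P7KO (1.057 against 1.060 times) or at day 12 (1.013 against 1.037 times). In the genotype libraries the 13 mitochondrial genes took 0.468% to 1.18% of all counts and the nuclear members 0.500% to 0.711%. The 2 DuxKO libraries had mitochondrial shares of 0.468% and 0.995%, and those of CtbpDKO 0.576% and 0.993%. Nuclear shares were 0.629% and 0.614% in DuxKO, and 0.591% and 0.635% in CtbpDKO. In the Pramel7 table, WT libraries 3 and 4 had mitochondrial shares of 0.610% and 0.737%, and WT libraries 5 and 6 had 1.04% and 1.13%. Fewer mitochondrial transcripts per cell and other causes of a lower share cannot be told apart in bulk RNA.

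**Figure D1:**
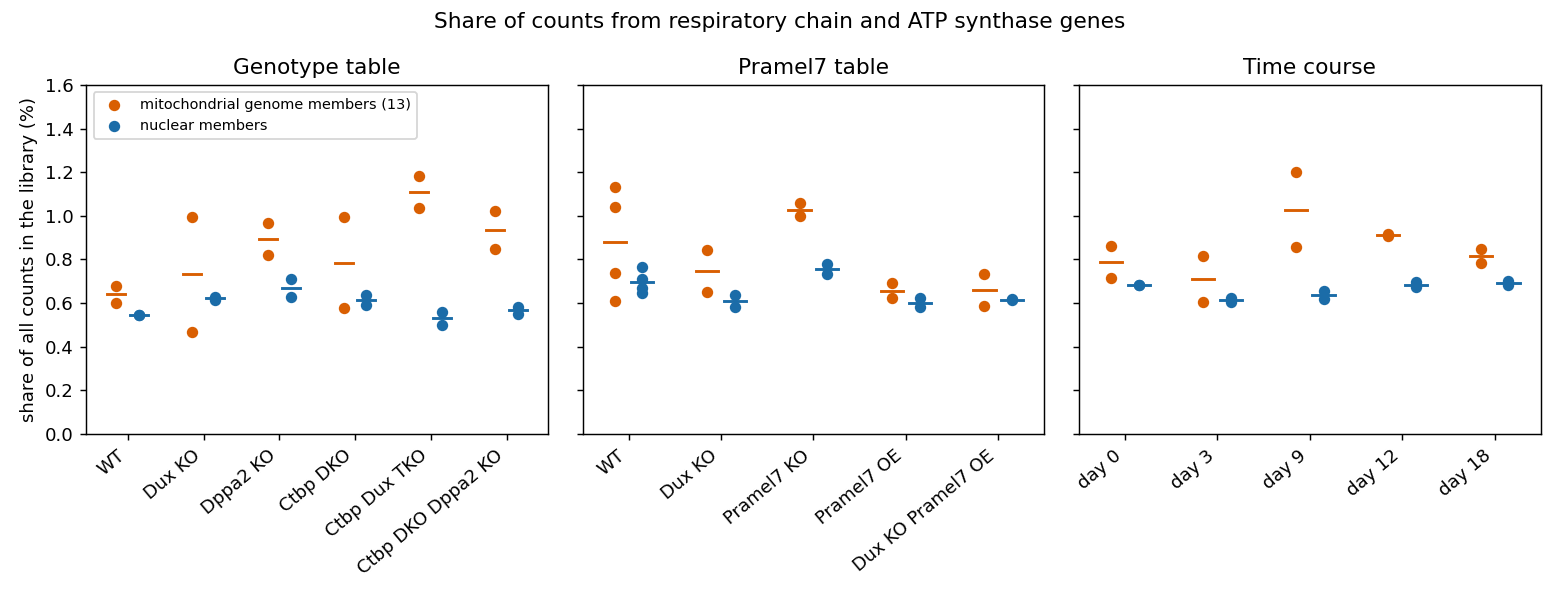
Share of all counts (%, y axis) taken by the 13 mitochondrial genome members (orange) and the nuclear members (blue) in each library (points) of each group (x axis), with bars at group means. The 2 DuxKO libraries of the genotype table lie at 0.468% and 0.995% for mitochondrial genes, while the nuclear shares of that table stay between 0.500% and 0.711%.

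Counts of some mitochondrial genes cannot be separated from nuclear copies. Gm10925, a pseudogene on chromosome 1 at 24613971 to 24614651 (GRCm38.p6), is a copy of mt-Atp6 and carried 0.99 to 1.17 times its counts over the 34 libraries. The like ratio was 0.995 to 1.07 for Gm10222 and mt-Nd4l. It was 1.00 to 1.47 for Gm28437 and mt-Co3, and 0.99 to 1.10 for Gm28661 and mt-Co2. In WT of the genotype table, per kilobase, mt-Atp6 was highest (2027 ± 13 CPM per kb, SD, n = 2), then mt-Co3 (1799 ± 116), mt-Atp8 (1726 ± 126) and mt-Nd1 (1212 ± 160). The ranges of mt-Co3 and mt-Atp8 overlapped. The lowest were mt-Nd6 (95.2 ± 20.4) and mt-Nd5 (78.9 ± 16), which also overlapped.

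Every fit was repeated with 1 library left out at a time, where the lone library of a pair is assumed to vary like the other groups. Of 195 calls of members over the 16 comparisons, 48 held whichever library was left out and 147 were lost without at least 1.

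The comparison of CtbpDKO with WT asked what loss of both corepressors does. In it 16 of 87 nuclear members rose and 2 fell under an adjusted p of 0.05 (edgeR, Benjamini-Hochberg), where 14.7% of all 21193 genes tested rose and 11.4% fell. The median nuclear log2 fold change was 0.07, and that of all genes 0.01. Those that rose included Cyc1, the cytochrome c1 of complex III, at 131 and 129 CPM in WT and 202 and 190 in CtbpDKO. The groups did not overlap (log2 fold change 0.59, SE 0.09, adjusted p = 0.00019). Cox4i1, the common regulatory subunit of complex IV, stood at 148 and 134 CPM in WT and at 225 and 188 in CtbpDKO (log2 fold change 0.55). Uqcrc1, a core protein of complex III (0.52), Atp5a1, the catalytic-head alpha subunit of complex V (0.37), and Ndufa13 of complex I (0.57) rose too. The core subunits Ndufs1 (0.08), Sdha (-0.04) and Atp5b (0.07) were not called.

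By complex, 4 of 37 complex I genes, 0 of 4 of complex II, 3 of 9 of complex III, 4 of 16 of complex IV and 5 of 17 of complex V rose in CtbpDKO. The log2 fold changes of complex II ran from -0.11 to 0.19. The 2 members that fell were Ndufa4 of complex IV (-0.37) and Cox6b2 (-0.70). Of the mitochondrial genes, mt-Nd2 rose (log2 fold change 0.91, adjusted p = 0.047). Without WT library 1, WT library 2 or CtbpDKO library 2, or with DESeq2, mt-Nd2 was not called (0.57 to 1.10 on the log2 scale without a library). The calls of Cyc1, Cox4i1, Uqcrc1, Atp5a1 and Ndufa4l2 held whichever library was left out, and each other call of this comparison was lost without at least 1. The count of nuclear calls was 9 without WT library 1, 10 without WT library 2, 7 without CtbpDKO library 1 and 13 without CtbpDKO library 2.

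In the genotype table, single losses of Dux and of Dppa2 were each compared with WT. The Pramel7 table also holds DuxKO, and there 1 nuclear member rose and 5 fell, with a median of -0.11. In DuxKO of the genotype table, by contrast, 16 nuclear members rose and 1 fell, beside 7.94% and 9.56% of all genes, and the median was 0.21. In Dppa2KO 22 rose and 0 fell, beside 7.67% and 8.69%, and the median was 0.30. In Dppa2KO 82 of 87 nuclear members had a positive log2 fold change, and the median of all genes was -0.02. For a count of 0 lower calls by edgeR, DESeq2 called 24 higher and 0 lower, and 49 members had an unadjusted p under 0.05 in either direction.

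In Dppa2KO the largest log2 fold change among called members was that of Cox6b1, the common partner of Cox6b2, at 11.2 and 13.6 CPM in WT and 26.7 and 17.3 in Dppa2KO (log2 fold change 0.83, SE 0.18, adjusted p = 0.0087). Without WT library 1 (0.70) or Dppa2KO library 1 (0.49) Cox6b1 was not called. Ndufa8 went from 30.3 and 27.6 CPM to 44.5 and 44.0, with no overlap (0.61). Atp5a1 (0.48), Cox5a (0.42) and Cyc1 (0.35) rose, while Sdha (0.15) and Ndufs1 (0.26) were not called. In DuxKO the members that rose included Cox4i1 (205 and 201 CPM, log2 fold change 0.53), Ndufb8 (0.50) and Ndufb7 (0.58), both accessory subunits of complex I, and the 1 that fell was Ndufv3 (-0.82).

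The 2 knockouts share the WT libraries, so their calls are not independent of each other. Cox4i1 and Atp5o held in DuxKO whichever library was left out, as did Ndufa8, Cox6a1, Atp5h and Atp5a1 in Dppa2KO, and each other call was lost without at least 1. Without 1 library the DuxKO count of 17 was 7 (WT 1), 5 (WT 2), 3 (DuxKO 1) or 6 (DuxKO 2), and on total counts without scaling it was 3 (2 higher, 1 lower). The Dppa2KO count was 11 (WT 1), 9 (WT 2), 7 (Dppa2KO 1) or 18 (Dppa2KO 2). No mitochondrial gene was called in either by edgeR or DESeq2, with 1 and 8 of 13 under an unadjusted p of 0.05. Their median was 0.24 in DuxKO and 0.63 in Dppa2KO. In DuxKO it was 0.67 without DuxKO library 1 and -0.51 without DuxKO library 2.

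**Figure D2:**
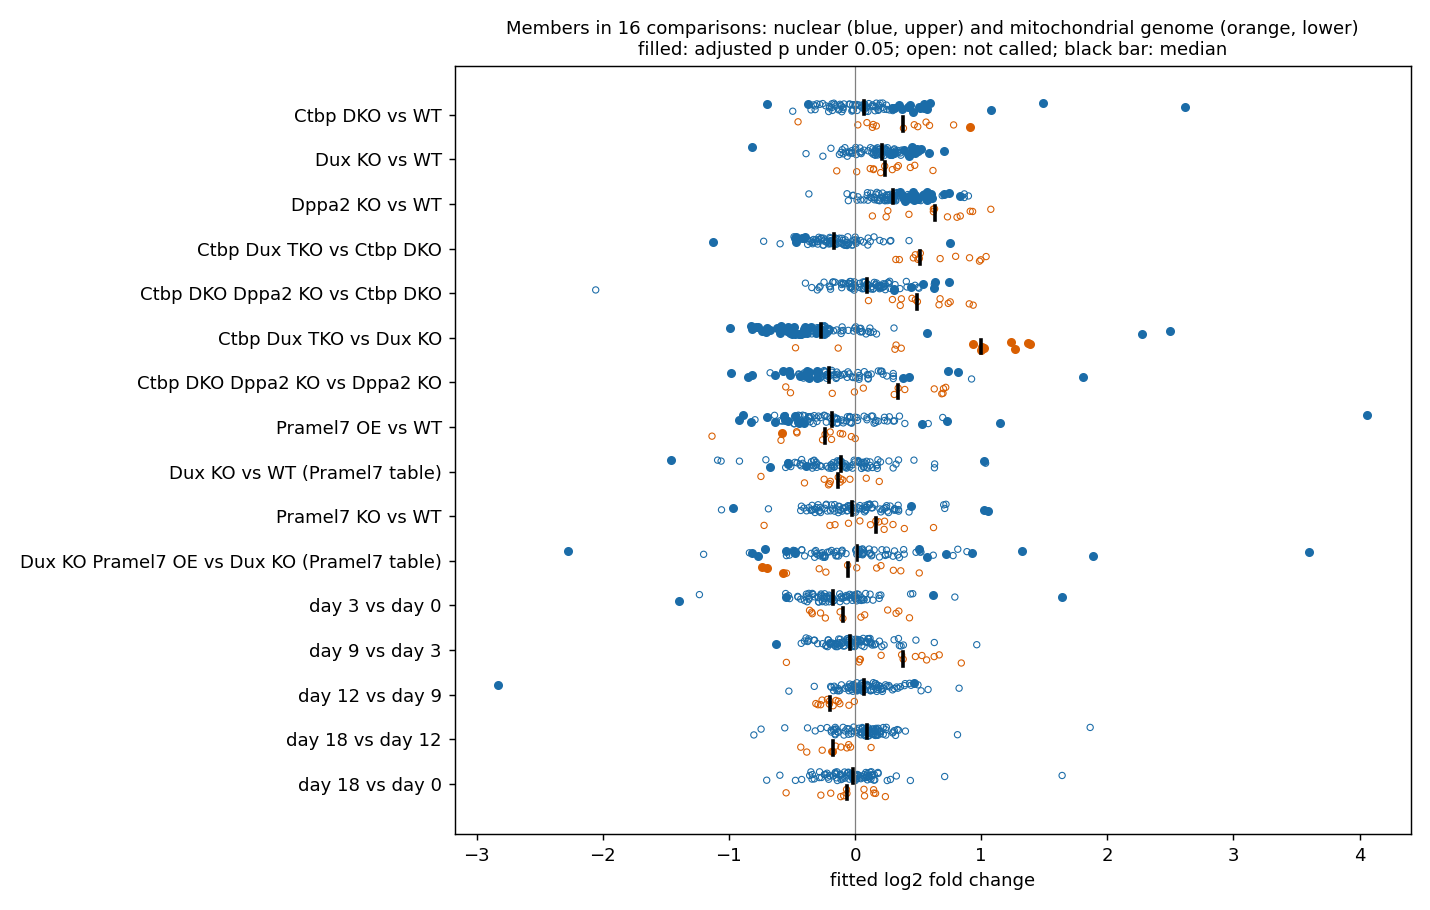
Fitted log2 fold change (x axis) of each nuclear (blue) and mitochondrial (orange) member in each of 16 comparisons (rows), with filled points under an adjusted p of 0.05 and black bars at medians. In Ctbp_DuxTKO against DuxKO the nuclear median lies at -0.27 and the mitochondrial one at 1.00.

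With loss of Ctbp in DuxKO cells most nuclear calls were lower and the mitochondrial calls were higher. In Ctbp_DuxTKO against DuxKO 38 of 87 nuclear members fell and 3 rose, beside 19.6% and 21.4% of all genes, while 8 of 13 mitochondrial genes rose and 0 fell. The nuclear median was -0.27, the mitochondrial one 1.00 and that of all genes 0.04. Complex I held the most of those that fell: 18 of 37 genes fell, against 2 of 4 in complex II, 3 of 9 in complex III, 6 of 16 in complex IV and 7 of 17 in complex V. Whether the complexes differ was not tested. The nuclear count of 41 was 25 without DuxKO library 1 and 27 without Ctbp_DuxTKO library 1.

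Ndufb8, an accessory subunit of complex I often used as a protein marker of its assembly, was at 125 and 104 CPM in DuxKO and at 56.2 and 58.9 in Ctbp_DuxTKO. The groups did not overlap (log2 fold change -0.99, SE 0.15, adjusted p = 0.00016). Cox6a1, whose promoter is printed above, fell from 80.5 and 79.0 CPM to 51.6 and 54.9 (-0.58). Sdha, the flavoprotein of complex II, fell from 166 and 173 CPM to 116 and 124 (-0.50). Ndufs1 (-0.40), Sdhb (-0.31), Cox4i1 (-0.40) and Atp5b (-0.40) fell as well. Sdhb was not called without DuxKO library 1 or Ctbp_DuxTKO library 2 (-0.26 in both), while the other members named in this paragraph as lower held whichever library was left out. Cyc1 (0.17), Uqcrc1 (0.06) and Atp5a1 (0.01) were not called.

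Among mitochondrial genes the rises were led by mt-Nd4 (132 and 336 CPM in DuxKO, 692 and 535 in Ctbp_DuxTKO, log2 fold change 1.39) and mt-Nd4l (1.37). Then came mt-Nd1 (1.27), mt-Nd2 (1.24), mt-Co1 (1.02), mt-Cytb (1.01), mt-Nd6 (1.00) and mt-Nd5 (0.94). The calls of mt-Nd1, mt-Nd2, mt-Nd4 and mt-Nd4l held whichever library was left out. The groups did not overlap for mt-Nd4, but the DuxKO libraries differed from each other by more than the nearer one did from Ctbp_DuxTKO. DESeq2 called 5 of the 13. Without DuxKO library 1, which had the lowest mitochondrial share, 4 rose, 1 fell and the median was 0.42. Without DuxKO library 2, 11 rose and the median was 1.74.

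Loss of Ctbp in Dppa2KO cells gave a smaller set of calls. There 17 nuclear members fell and 5 rose, beside 15.2% and 15.2% of all genes, and the median was -0.21. Those that rose were Ndufa4l2, Ndufa13 (0.81), Ndufb7 (0.74), Cox4i1 (0.43) and Cyc1 (0.38). Cox6b1 (-0.57), Cox5a (-0.44), Atp5b (-0.38) and Ndufs1 (-0.37) fell. No mitochondrial gene was called by edgeR or DESeq2, 5 had an unadjusted p under 0.05, and their median was 0.34. Ndufa4l2, Ndufa13, Ndufb7, Cyc1 and Ndufa4 were called whichever library was left out. On total counts without scaling the nuclear split was 3 higher and 21 lower. The nuclear count of 22 was 8 without library 1 and 13 without library 2 of the Ctbp double knockout with Dppa2 loss.

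The test of the difference itself called 28 of 100 members for Ctbp loss with and without Dux, beside 19.5% of all genes. Of the 28, 27 had the lower change in DuxKO cells and 1 the higher, beside 9.64% and 9.82% of all genes. Cox4i1 had the smallest adjusted p among named members, 0.00059: it rose by 0.55 in CtbpDKO against WT and fell by 0.40 in Ctbp_DuxTKO against DuxKO, a difference of -0.94 (SE 0.14). For Dppa2 the test called 5 members, beside 8.23% of all genes, and all 5 had the lower change in Dppa2KO cells (5% of all genes, with 3.23% higher): Ndufs1, Ndufa8, Atp5b, Atp5h and Atp5a1. All of these calls were of nuclear members. On total counts without scaling the Dux count was 11. Without WT 2, DuxKO 1, CtbpDKO 1 or Ctbp_DuxTKO 1 it was 15, 12, 12 and 18. The Dppa2 count was 0 without WT library 2, and 1 to 3 without any other library except the second with Ctbp and Dppa2 loss (4).

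Against CtbpDKO, the added loss of Dux went with 1 nuclear member higher and 6 lower (3.6% and 4.54% of all genes, median -0.17). The members that fell included Cox4i1 (-0.42), Ndufb9 (-0.47), Ndufa8 (-0.47) and Cox5b (-0.47). On total counts 0 rose and 4 fell. The count was 0 without CtbpDKO library 1 or Ctbp_DuxTKO library 1, and 4 without the other library of either group. The added loss of Dppa2 went with 7 higher and 0 lower (5.75% and 9.67% of all genes, median 0.10). Ndufb8 was the largest, at 74.5 and 74.9 CPM in CtbpDKO and 112 and 138 with Dppa2 loss (0.74), though not called without the second library with Dppa2 loss (0.58), followed by Atp5e (0.63) and Ndufa2 (0.62). DESeq2 called 8 higher and 0 lower there, and 16 members had an unadjusted p under 0.05. The count was 3 (CtbpDKO 1), 1 (CtbpDKO 2) or 2 (the second library with Dppa2 loss) when that library was left out. In both comparisons edgeR and DESeq2 called 0 mitochondrial genes, with 5 of 13 under an unadjusted p of 0.05 in each. All 13 had a positive log2 fold change in each, with a median of 0.52 for Dux and 0.49 for Dppa2 (0.23 to 0.96 and 0.33 to 0.92 with 1 library left out). The 2 comparisons share the CtbpDKO libraries, whose mitochondrial shares were 0.576% and 0.993%. Their results are therefore not independent of each other. In neither comparison did a call hold whichever library was left out.

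Markers of other lineages differed between some of these groups. The summed CPM of 6 primitive endoderm markers was 119 to 124 in Ctbp_DuxTKO, 32.8 to 35.6 in CtbpDKO, 25.3 to 30.03 in WT and 6.45 to 6.56 in DuxKO. None was at 0 in any group, all 6 were above 1 CPM in Ctbp_DuxTKO and 2 were in DuxKO. The summed CPM of 8 fibroblast markers was 4.90 to 5.44 in WT, 16.7 to 17.1 in CtbpDKO and 22 to 22.9 in Ctbp_DuxTKO. In each of these groups 3 of the 8 were at 0 and 2 were above 1 CPM. With Ctbp and Dppa2 loss the endoderm sum was 9.92 to 10.5, against 14.3 to 17.7 in Dppa2KO. The fibroblast sum was 4.86 to 5.38, against 3.91 to 4.27. The sum of 6 trophoblast markers was 47.4 to 47.8, against 12.3 to 12.7, with 4 and 3 of the 6 above 1 CPM. The part of these markers in the changes of the members was not tested.

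Mitochondrial genes had unequal changes with Ctbp loss. The log2 fold change of mt-Co3 was -0.45, -0.47 and -0.51 in the 3 backgrounds (WT, DuxKO and Dppa2KO), with none called. Those of mt-Nd1 were 0.78, 1.27 and 0.63, with only the change in DuxKO called. The ratio of mt-Nd1 to mt-Co3 counts within a library, chosen after the values were seen, was 0.472 to 0.942 in the 6 libraries with intact Ctbp and 1.48 to 2.22 in the 6 Ctbp knockout libraries. The groups did not overlap. For mt-Cytb over mt-Co3 the ranges were 0.164 to 0.365 and 0.497 to 0.685.

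Elsewhere the same ratio did not follow the Ctbp label. It was 1.03 and 1.02 at day 0 of the time course, in cells labelled CtbpDKO, and 0.883 to 1.21 over all days. In WT of the Pramel7 table it was 0.977 and 0.867 in libraries 3 and 4, and 1.54 and 1.47 in libraries 5 and 6. Since mt-Co3 shares counts with Gm28437, a ratio over it holds both sources.

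**Figure D3:**
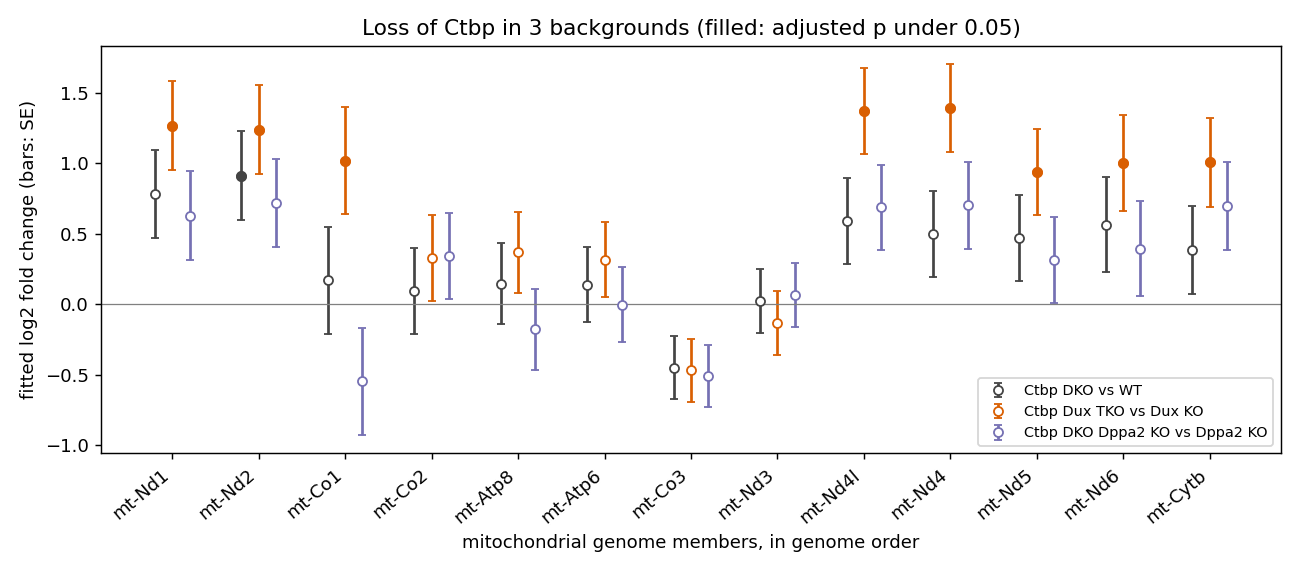
Fitted log2 fold change (y axis, bars are SE) of the 13 mitochondrial genome members in genome order (x axis) for loss of Ctbp in WT, DuxKO and Dppa2KO cells, filled under an adjusted p of 0.05. The value of mt-Co3 lies below 0 in all 3 comparisons (-0.45, -0.47 and -0.51), while mt-Nd1 and mt-Nd2 lie above it.

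**Figure D4:**
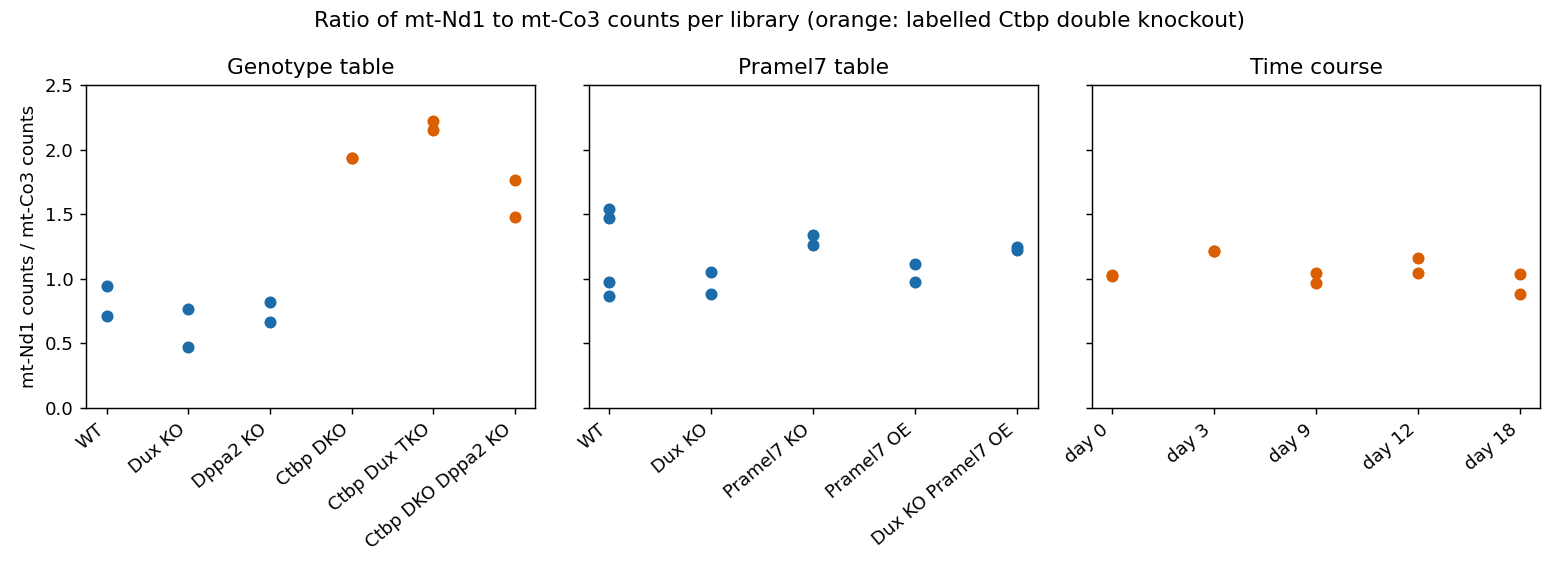
Ratio of mt-Nd1 to mt-Co3 counts (y axis) in each library (points) by group (x axis), with cells labelled as Ctbp double knockouts in orange. In the genotype table the 6 knockout libraries lie between 1.48 and 2.22, but the time course libraries lie between 0.883 and 1.21.

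Some complex IV members have a second copy of restricted use, and Ndufa4l2 was one that moved with Ctbp. It is a hypoxia-inducible relative of Ndufa4, which itself belongs to complex IV. Ndufa4l2 was at 2.62 and 2.28 CPM in WT, 2.14 and 1.96 in DuxKO, and 3.03 and 2.21 in Dppa2KO. It was at 7.41 and 6.37 in CtbpDKO, 11.2 and 12 in Ctbp_DuxTKO, and 9.97 and 8.39 with Ctbp and Dppa2 loss. All 6 Ctbp knockout libraries were above all 6 others. Its log2 fold change was 1.49 in WT cells (SE 0.19, adjusted p = 7.5e-05), 2.5 in DuxKO (SE 0.20, adjusted p = 5.0e-07) and 1.80 in Dppa2KO (SE 0.19, adjusted p = 1.3e-05). It was called in every alternative run for these 3 comparisons.

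Cox4i2, the hypoxia-inducible relative of Cox4i1, had 8 and 4 counts in WT and 40 and 45 in CtbpDKO. In Ctbp_DuxTKO it had 29 and 8 counts, and in the other groups 2 to 9. It met the minimum mean of 10 counts in this table only through the groups where it was high, so its values are a description with no test, although it is among the members counted as higher in CtbpDKO and in Ctbp_DuxTKO against DuxKO. Cox7a1, the heart and muscle relative of Cox7a2, was at 1.41 and 1.70 CPM in WT and 3.75 and 2.82 in CtbpDKO (1.08), and lower again in Ctbp_DuxTKO at 1.78 and 1.26 (-1.12 against CtbpDKO). The first call was lost without WT library 1, WT library 2 or CtbpDKO library 1 (0.84 to 1.20), and the second whichever library was left out (-0.89 to -1.38).

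The Pramel7 table asked what overexpression and loss of Pramel7 do. Its WT libraries were not alike. The ratio of mt-Cytb to mt-Co3 counts was 0.124 and 0.132 in libraries 3 and 4, and 0.503 and 0.467 in libraries 5 and 6. Comparisons with WT pool all 4 unless a pair is named, and some results below change with the pair used. In P7OE 4 of 89 nuclear members rose and 12 fell, beside 11% and 8.9% of all 20161 genes tested, and the median was -0.18. By complex, 2 of 4 genes of complex II and 5 of 17 of complex V fell. In complexes I, III and IV, 2 of 37, 1 of 9 and 2 of 16 did. A difference between complexes was not tested. Sdhb, the iron-sulfur subunit of complex II, was at 87.7, 89.5, 80.6 and 81.7 CPM in WT and at 54.9 and 62.5 in P7OE (log2 fold change -0.53, SE 0.11, adjusted p = 0.0055). It was not called without P7OE library 1 (-0.45). Ndufs1 (-0.55), Atp5a1 (-0.48) and Ndufs6 (-0.70) fell too. Without P7OE library 2, Ndufs1 (-0.46) and Atp5a1 (-0.39) were not called, nor was Atp5a1 without P7OE library 1 (-0.56). Atp5l, a membrane subunit of complex V, was at 173, 178, 182 and 261 CPM in WT and 103 and 107 in P7OE (-0.92). WT library 6 stood above the other 3 for Atp5l.

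Of the 4 that rose, Cox6a1 went from 65.6, 66.1, 74.2 and 75.7 CPM in WT to 118 and 115 in P7OE (log2 fold change 0.73, adjusted p = 0.00067). Cox7b2 had 4, 2, 3 and 2 counts in WT and 45 and 40 in P7OE. It met the minimum mean of 10 counts in this table only through the libraries with Pramel7 overexpression (0 to 4 counts in all others), so its values are a description with no test, although it is among the members counted as higher. The ratio of its summed counts per scaled library size was 16.2. In DuxKO cells it had 2 and 2 counts, and 8 and 16 with Pramel7 overexpression, a ratio of 12.9. Cox7b, its common partner, fell in P7OE (-0.56). In P7OE the calls of Cox6a1, Cox6b2 and Atp5l held whichever library was left out.

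Of the mitochondrial genes mt-Atp6 fell in P7OE (-0.58, adjusted p = 0.026), and the median of the 13 was -0.24. Without WT library 4, P7OE library 1 or P7OE library 2 mt-Atp6 was not called (-0.43 to -0.73). Against WT libraries 3 and 4 alone 6 rose, 2 fell and the median was 0.10, while against WT libraries 5 and 6 alone 9 fell and the median was -0.73. The nuclear count of 16 was 37 against WT 3 and 4 alone, 24 without WT library 6, 6 without P7OE library 1 and 5 without P7OE library 2. The summed primitive endoderm markers were 68.8 to 73.5 CPM in P7OE and 6.58 to 8.48 in WT, with 5 and 2 of the 6 above 1 CPM and none at 0, and their part was not tested.

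In DuxKO cells overexpression of Pramel7 went with 7 nuclear members higher and 8 lower, beside 11.6% and 9.83% of all genes. These were 7.87% and 8.99% of the 89 nuclear members, no more than the shares of all genes, and the nuclear median was 0.01. Atp5md, a small subunit of complex V known as DAPIT, was at 56.0 and 67.0 CPM in DuxKO and 8.90 and 16.6 in DuxKO_P7OE (log2 fold change -2.27, SE 0.31, adjusted p = 0.00028). Atp5md also varied within groups of the genotype table. Its counts there were 1574 and 616 in DuxKO, 512 and 1382 in CtbpDKO, and 885 and 1159 in WT. Atp5k, the e subunit of complex V, rose from 22.7 and 23.7 CPM to 52.4 and 63.9 (1.33). Cox6a1 rose from 71.9 and 64.8 to 124 and 137 (0.93), and Ndufa4l2 from 1.12 and 1.18 to 4.4 and 4.15 (1.89). Sdha (-0.72), Sdhb (-0.49) and Sdhd (-0.48), 3 of the 4 subunits of complex II, fell, though the call of Sdha was lost whichever library was left out (-0.67 to -0.76). Whether complex II differs from the other complexes was not tested. In the mitochondrial genome mt-Nd3 (-0.73), mt-Atp6 (-0.70) and mt-Co3 (-0.57) fell.

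The DuxKO_P7OE libraries were the shallowest of the table, with totals of 11089600 and 10123100 counts. Atp5k, Cox6a1, Ndufa4l2 and Atp5md held whichever library was left out. The nuclear count of 15 was 8 without DuxKO library 3 or without either DuxKO_P7OE library, 5 without DuxKO library 4 and 6 on total counts without scaling (5 higher, 1 lower). The test of whether Pramel7 overexpression acts differently in DuxKO cells called 5 members, beside 7.5% of all genes. The change was higher in DuxKO cells for Ndufa4l2, Atp5g1 and Atp5l (4.27% of all genes) and lower for Cox6b2 and Atp5md (3.23%). The count was 0 without DuxKO library 4 and 10 without WT library 6. It was 3 without WT library 3 or DuxKO_P7OE library 2, and 1 without DuxKO library 3, DuxKO_P7OE library 1 or either P7OE library.

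Cox6b2 was lowest in WT among the 5 groups of the Pramel7 table. It was at 4.88, 5.54, 4.08 and 4.64 CPM in WT. The other groups held 9.90 and 9.61 (DuxKO), 10.6 and 8.81 (P7KO), 10.1 and 11.1 (P7OE), and 9.63 and 12.1 (DuxKO_P7OE). No library of those groups overlapped WT. Its log2 fold change against WT was 1.15 in P7OE, 1.03 in DuxKO and 1.02 in P7KO, with adjusted p-values of 0.00052, 0.0012 and 0.0019. The 3 comparisons share the WT libraries, and the call in P7KO was lost without P7KO library 1 (0.86). In the genotype table Cox6b2 was at 6.01 and 6.0 CPM in WT and 6.56 and 7.51 in DuxKO and was not called (0.23).

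DuxKO against WT could be read in both tables, which were normalized separately. In the Pramel7 set 1 nuclear member rose and 5 fell, beside 7.76% and 8.91% of all genes, with a median of -0.11, where the genotype table gave 16, 1 and 0.21. Ndufs1 rose in the genotype table (0.28) and fell in the Pramel7 table (-0.39). Ndufa4l2 was not called in the first (-0.25) and fell in the second (-1.46). The difference between the tables was not tested, and Ndufs1 was not called in the second without WT library 4, DuxKO library 3 or DuxKO library 4 (-0.37 to -0.40). The Pramel7 table count of 6 was 11 without WT 3, 12 without WT 6, and 2 without DuxKO 3 or DuxKO 4.

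In P7KO 3 nuclear members rose and 1 fell, beside 3.93% and 5.55% of all genes. Ndufs5 of complex I was at 8.10, 5.58, 8.43 and 5.50 CPM in WT and 15.7 and 13 in P7KO, with no overlap (1.05). The others were Cox6b2, Ndufa7 (0.44) and, lower, Ndufa4l2 (-0.97). The count was 0 without P7KO library 1 and 2 without P7KO library 2, and without P7KO library 1 Ndufs5 was at 0.89 and not called. With RLE factors the split was 2 higher and 2 lower, with DESeq2 3 and 4, and on total counts 3 and 0. No mitochondrial gene was called in P7KO or DuxKO of this table by edgeR or DESeq2, and 0 had an unadjusted p under 0.05. Against WT 3 and 4 alone 8 of the 13 rose and 1 fell in P7KO, and 6 rose in DuxKO. Against WT 5 and 6 alone 7 fell in DuxKO (median -0.65).

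**Figure D5:**
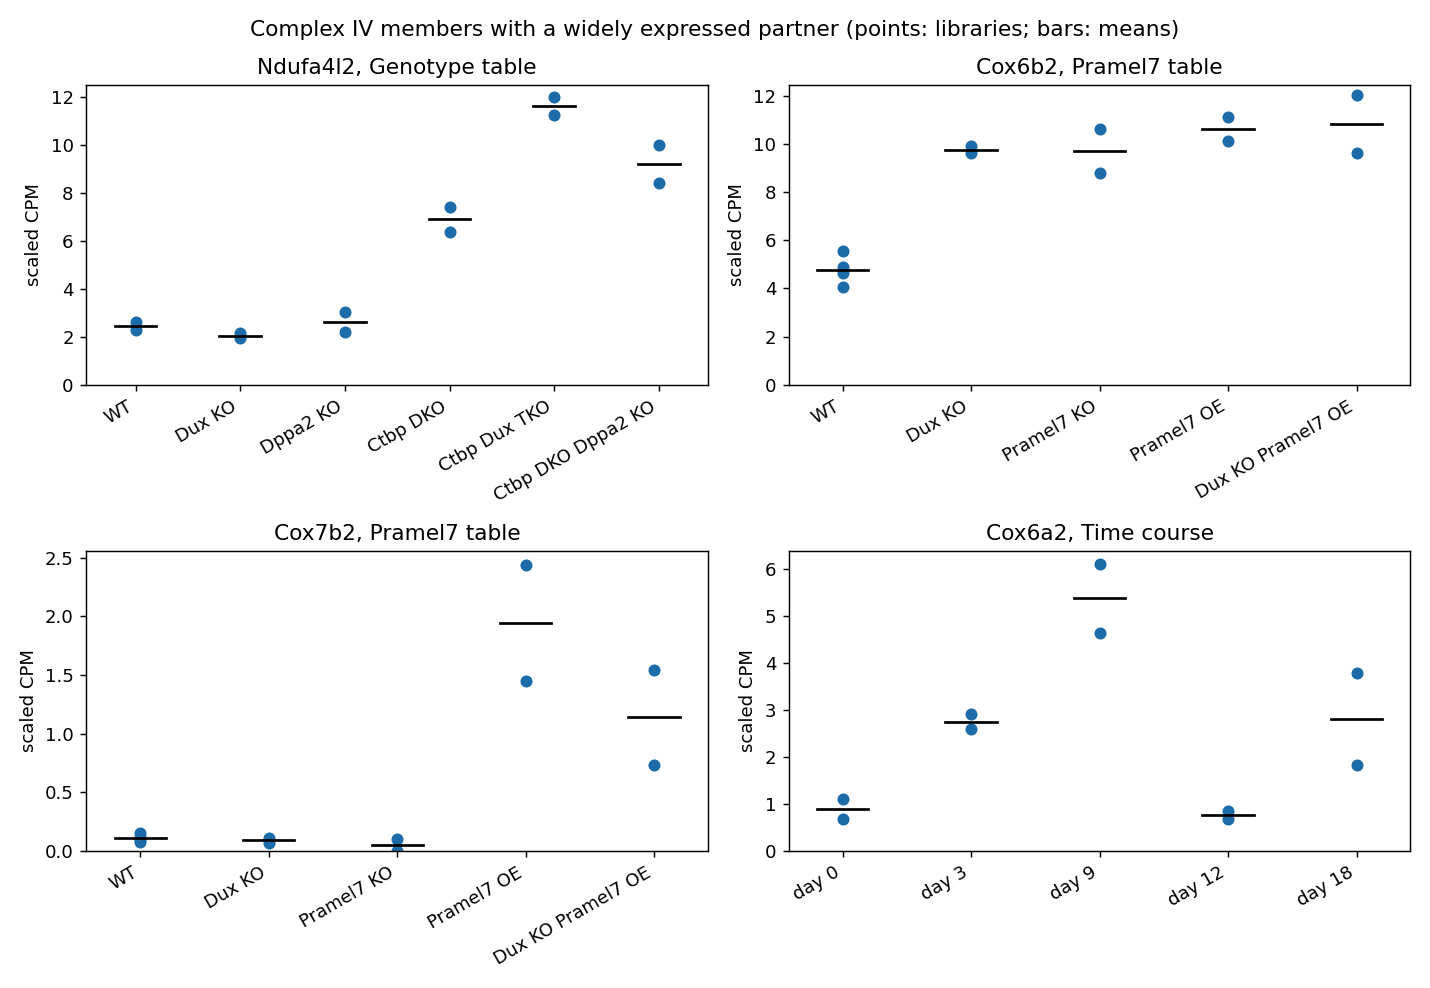
Scaled CPM (y axes) by group (x axes) of Ndufa4l2 (genotype table), Cox6b2 and Cox7b2 (Pramel7 table) and Cox6a2 (time course), with points for libraries and bars for means. Ndufa4l2 was at 6.37 or more in the Ctbp knockouts and at 3.03 or less in the other genotypes, Cox6b2 was at 5.54 or less in WT and 8.81 or more in the other groups, and Cox6a2 peaked at day 9 (4.65 and 6.11).

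Over the time course few members were called. From day 0 to day 3, when Ctbp2 RNA rose, 2 of 88 nuclear members rose and 2 fell. Of all 20612 genes tested 2.41% rose and 2.59% fell. At that step the nuclear median was -0.17, and 25 of 88 nuclear members had a positive log2 fold change. An unadjusted p under 0.05 was reached by 28 of them in either direction. Ndufa4l2 fell from 6.27 and 9.83 CPM to 3.03 and 3.11 (log2 fold change -1.39, SE 0.26, adjusted p = 0.0075). It was then at 4.50 and 3.49 at day 9, 5.70 and 5.82 at day 12, and 8.43 and 11.7 at day 18, and no later step was called. The fall was not called without day 0 library 2 (-1.03), day 3 library 1 (-1.37) or day 3 library 2 (-1.41). Cox7b fell (-0.55) and Uqcrq, a small subunit of complex III, rose (0.62).

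Cox6a2, the heart and muscle relative of Cox6a1, had 22 and 15 counts at day 0 and 53 and 57 at day 3, a rise (log2 fold change 1.64, adjusted p = 0.036). That call was lost whichever of the 4 libraries was left out (1.32 to 2.03). It had 127 and 140 counts at day 9, then 15 and 19 at day 12, a fall (-2.83, SE 0.41, adjusted p = 0.0018), and 67 and 55 at day 18. Its level was high at days 3 and 9, when Ctbp2 was high, but also at day 18, when it was not. The fall at day 12 held whichever library was left out. Cox6a2 lay below the count minimum in the other tables. In the genotype table it had 24 to 30 counts in CtbpDKO, 1 to 5 in WT and 0 to 8 in the other groups. These values are a description with no test.

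From day 3 to day 9, 0 members rose and 1 fell (Uqcrq, -0.63), beside 0.524% and 0.592% of all genes, and from day 9 to day 12, 1 rose (Uqcrh, 0.47) and 1 fell (1.87% and 1.97%). From day 12 to day 18 and from day 0 to day 18 edgeR called 0 members, beside 0.64% and 0.18%, and 0.359% and 0.155% of all genes. DESeq2 called 1 nuclear member in each, and 9 and 6 had an unadjusted p under 0.05. In the 5 comparisons of the time course edgeR called 0 mitochondrial genes, with 2, 7, 0, 2 and 1 under an unadjusted p of 0.05. The mitochondrial medians were -0.10, 0.38, -0.20, -0.17 and -0.06, with 6, 12, 0, 1 and 6 of the 13 positive. The nuclear medians were -0.17, -0.04, 0.07, 0.09 and -0.02. DESeq2 called 3 from day 3 to day 9 and 1 from day 12 to day 18. Without day 0 library 1 or 2, or day 3 library 1 or 2, the count of 4 at day 3 was 1, 0, 1 and 2. With DESeq2 the split at day 3 was 2 higher and 6 lower, and on total counts 2 and 5, while at day 12 DESeq2 and RLE factors gave 2 and 1. Uqcrq at day 9 (-0.51 to -0.76) and Uqcrh at day 12 (0.44 to 0.48) were each lost whichever library of the groups compared was left out. The summed primitive endoderm markers were 13.1 to 15.1 CPM at day 3 and 58.2 to 67.4 at day 18, with 3 and 6 of the 6 above 1 CPM and none at 0, and their part was not tested.

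Other genes of mitochondria were read from lists, beside the shares of all genes called. Of 78 mitochondrial ribosomal proteins tested, 18 rose and 1 fell in CtbpDKO, where 14.7% of all genes rose and 11.4% fell. In Dppa2KO 18 rose and 0 fell, where 7.67% and 8.69% of all genes did. In Ctbp_DuxTKO against DuxKO, where 21.4% of all genes rose and 19.6% fell, 9 of them rose and 29 fell, with a median of -0.19. Of 14 enzymes of the tricarboxylic acid cycle, 1 rose and 7 fell in that comparison. Of 50 assembly factors of the complexes 3 rose and 12 fell. Of 32 genes that copy or transcribe mitochondrial DNA or handle its RNA, 2 rose and 8 fell. In these 2 lists the shares that fell were near that of all genes, while the shares that rose were below the 21.4% of all genes. Of 13 transcription factors and coactivators of respiratory genes, 6 rose and 3 fell.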

How the data were processed

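The authors deposited whole-number counts for each gene symbol, with no normalization. The submitters' processing notes name Trim Galore, HISAT2, featureCounts and mm10, and also Bismark. Their settings, the annotation and the strand and multiple-hit handling are not given in the sources used here, so counts of near-identical copies, overlapping genes and antisense genes are uncertain. Per the labels' protocols, a stranded Collibri kit was used on RNA from PureLink columns. All columns were matched to labels, and a second genotype table held the same values in 442208 of 442208 places. The 6 bisulfite libraries were not analysed here.

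For each of 3 tables a quasi-likelihood F test (edgeR 4.0.16, R 4.3.3) was fitted after filterByExpr and TMM scaling, with group as the only term. P-values were adjusted over all 21193, 20161 and 20612 genes kept, and a gene was called under an adjusted p of 0.05. All members passed the filter. Differences between backgrounds were tested as contrasts of 4 groups. CPM is counts per 1000000 of the TMM-scaled library size, a standard error is the log2 fold change over the square root of F, and the prior count of fitted values was 0.125. Just inside the minimum mean of 10 counts were Cox4i2 (13.9) in the genotype table, Cox7b2 (10.6) in the Pramel7 table and Cox4i2 (28.9) in the time course, and just outside were Cox6a2 (7.25), Cox4i2 (8.83) and Cox6c2 (8.3). Promoters were read from RefSeq, and members without an entry were left out of the motif shares. Scripts were tested on simulated data.

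Named members were all mitochondrial genes, up to 5 nuclear members per direction and comparison with the largest called change, no overlap and a mean of at least 50 counts, core subunits, and members with a second copy and that copy. Atp5h, Atp5o and Sdhd were named after their values were seen. The members and lists were chosen with earlier results of these data known. Alternatives were DESeq2 1.42.0, RLE factors, total counts, library sizes without mitochondrial genes, no filter, only the groups compared, a replicate block, each library left out, WT pairs of the Pramel7 table and, chosen after seeing the data, leaving out symbols ending in -ps.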

Additional observations from a re-analysis of the deposited data

Results flagged for a closer look

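Of 38 members tested over the WT libraries of the Pramel7 table, 2 had 1 library far from the other 3. Chance gives about 1 in 20, so the number flagged was near that of chance. Atp5e was at 201 CPM in library 6 (116 to 129 in the others) and Atp5l at 261 (173 to 182).

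The effect of Ctbp loss differed with Dux by the test of the difference for 28 members. The named ones were Cox4i1 (log2 difference -0.94), Ndufb8 (-0.87), Ndufa13 (-0.58), Cox6a1 (-0.56), Sdhb (-0.50), Ndufs1 (-0.49), Atp5b (-0.47), Uqcrc1 (-0.46), Sdha (-0.46), Cyc1 (-0.42), Atp5a1 (-0.36) and, higher, Ndufa4l2 (1.01). It differed with Dppa2 for 5 members, among them Atp5a1 (-0.52), Ndufs1 (-0.45) and Atp5b (-0.45).

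The effect of Pramel7 overexpression differed with Dux for 5 members: Ndufa4l2 (1.54), Atp5g1 (1.12), Atp5l (0.98), Cox6b2 (-1.0) and Atp5md (-1.38). Library 6, which stood apart for Atp5l, is among the WT libraries of that test.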

How the results depend on the processing

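No called value changed direction in any alternative run, and the cause of the shifts below was not tested. Without TMM scaling (total counts) the counts of nuclear calls were 3 (DuxKO), 14 (Dppa2KO), 4 (Ctbp_DuxTKO against CtbpDKO), 3 (Dppa2 loss against CtbpDKO), 10 (P7OE), 6 (DuxKO_P7OE against DuxKO), 7 (day 3) and 0 (day 9), and the interactions of Ctbp loss with Dux, of Ctbp loss with Dppa2 and of Pramel7 with Dux 11, 3 and 2. That scaling moved the median of all genes to -0.18 (Dppa2 loss against CtbpDKO), 0.16 (P7KO) and 0.15 (day 9). DESeq2 gave 11 (Pramel7 table DuxKO), 7 (P7KO), 8 (day 3), 1 and 1 (day 18 against day 12 and day 0), and 8 for the Dppa2 interaction. No filter gave 11 (Ctbp_DuxTKO against CtbpDKO), 13 (Pramel7 table DuxKO), 7 (P7KO), 10 (day 3), 4 (day 12), 3 and 3 (day 18), and 10 for the Dppa2 and 10 for the Pramel7 interaction. Fits of only the groups compared gave 1 (Ctbp_DuxTKO against CtbpDKO), 10 (P7OE), 3 (Pramel7 table DuxKO), 2 (P7KO) and 23 (DuxKO_P7OE). Leaving out symbols ending in -ps moved the count of 41 to 39 and that of 15 to 14. Library sizes without mitochondrial genes gave 2 for the Dppa2 interaction. Against WT 3 and 4 alone the counts were 37 (P7OE), 23 (DuxKO) and 21 (P7KO), and against WT 5 and 6 alone 17 (DuxKO) and 7 (P7KO). Mitochondrial medians were then 0.77 (P7KO) and 0.28 (DuxKO) with WT 3 and 4, and -0.73 (P7OE) and -0.65 (DuxKO) with WT 5 and 6.

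Replicate numbers did not pair libraries, since correlations of same-numbered libraries ran from -0.098 to 0.092 and 0 passed 0.1. The replicate block gave 10 (DuxKO), 30 (Pramel7 table DuxKO, with a mitochondrial median of 0.29), 0 (day 9) and 2 for the Dppa2 interaction, and it moved no other count by over 1.5 times.

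With 2 libraries in most groups, 147 of 195 calls of members were lost without at least 1 library. Leaving out 1 library gave 7 to 13 (CtbpDKO), 3 to 7 (DuxKO), 7 to 18 (Dppa2KO), 0 to 4 (Ctbp_DuxTKO against CtbpDKO), 1 to 6 (Dppa2 loss against CtbpDKO), 25 to 36 (Ctbp_DuxTKO against DuxKO), 8 to 17 (Ctbp and Dppa2 loss against Dppa2KO), 5 to 24 (P7OE), 2 to 12 (Pramel7 table DuxKO), 0 to 6 (P7KO), 5 to 8 (DuxKO_P7OE), 0 to 2 (day 3), 0 to 0 (day 9), 1 to 1 (day 12) and 0 to 1 (day 18, both). The interactions, in the order above, gave 12 to 24, 0 to 4 and 0 to 10. Mitochondrial medians ran from 0.23 to 0.96 (Ctbp_DuxTKO against CtbpDKO), 0.42 to 1.74 (against DuxKO), 0.33 to 0.92 (Dppa2 loss against CtbpDKO), -0.51 to 0.67 (DuxKO), -0.43 to 0.12 (day 12) and 0.056 to 0.66 (day 9).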
